A study of Mus musculus with 26 samples.

Results

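The expression of 10 genes that the tumour suppressor p53 is known to switch on was followed across 5 mouse liver experiments: Mdm2, Ccng1 and Phlda3, Cdkn1a, Btg2 and Gtse1, Bax, Eda2r and Trp53inp1, and Gdf15. They were chosen as named targets of p53 and DNA damage and were found by their Ensembl identifiers, as 10 of the 47643 genes in the deposited table of read counts. RNA sequencing libraries from 26 samples formed 10 groups, and each treated group was compared with its own control group.

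In the first experiment, 8-week-old wild-type C57BL/6J mice fed ad libitum were given TCPOBOP, an agonist of the constitutive androstane receptor (CAR), or its vehicle corn oil (2 libraries each, whole liver). The labels disagree on the time after injection, which is 36 h in the titles and 6 h in the source names. In the second, Fxr-/- Shp-/- mice, which lack the bile acid receptor Fxr (Nr1h4) and the repressor Shp (Nr0b2), were compared with wild-type mice (C57BL/6J, 12 weeks, ad libitum, whole liver, 3 libraries each). In the third, C3H/HeN livers taken 48 h after partial hepatectomy (PHx) were compared with sham livers at 0 h (8 to 10 weeks, ad libitum, whole liver, 3 libraries each). No genotype is labelled there, and surgery and elapsed time cannot be told apart. In the fourth, hepatocytes were isolated from wild-type C57BL/6J mice on a 60% fat diet or on chow (16 weeks, 10 h fast, 2 libraries each). In the fifth, mice carrying floxed Fxr and Shp alleles in both groups (fl/fl Fxr fl/fl Shp, no Cre labelled) received a cholic acid diet or chow (C57BL/6J, 10 to 12 weeks, 8 to 10 h fast, whole liver, 3 libraries each). The labels do not say whether the libraries of a group came from separate mice, so p-values measure only the spread between these samples.

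p53 is a transcription factor that is kept scarce by Mdm2, the ubiquitin ligase that marks it for degradation and that p53 itself induces. DNA damage, oncogenic signals and other stresses free p53 from Mdm2, and p53 then binds pairs of short half-sites near its targets. The targets stop the cell cycle, prepare cells for death, feed back on p53 or signal to other tissues. In the liver p53 limits the division of damaged hepatocytes. Because p53 is controlled mostly as a protein, the level of its own transcript says little about its activity, and no protein was measured here.

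Promoter sequences from RefSeq (GRCm38.p6), covering 250 bases before to 50 bases after each annotated start, were found for 9 of the 10 genes, in 12 windows. No entry was found for Trp53inp1. The consensus p53 half-site, 10 bases long, occurred in the windows of 5 genes: Cdkn1a, Mdm2, Ccng1, Bax and Gtse1. It occurred in 9.55% of 27025 genes with a window. A stricter search asked for 2 adjoining half-sites (20 bases, no spacer) with at most 1 mismatch. It matched Cdkn1a, Ccng1 and Gtse1, against 0.107% of all genes. These 3 matches are shown because they are the closest to a complete p53 site in this set, and the capitals mark them. The Cdkn1a stretch is chr17:29090903-29090972 (plus strand), the Ccng1 stretch chr11:40755437-40755506 (minus strand) and the Gtse1 match chr15:85859945-85859964 (plus strand), all read 5′ to 3′ in the direction of the gene.
Cdkn1a: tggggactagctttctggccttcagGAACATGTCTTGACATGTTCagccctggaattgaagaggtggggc
Ccng1: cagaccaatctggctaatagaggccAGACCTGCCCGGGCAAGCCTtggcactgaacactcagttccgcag
Gtse1: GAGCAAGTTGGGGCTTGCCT
The matches run from base -51 to -32 before the start of Cdkn1a, from -195 to -176 before that of Ccng1, and from -1 to 19 around the second annotated start of Gtse1. Cdkn1a and Ccng1 thus carry them upstream of the annotated start.

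Mdm2 and Bax each held 1 half-site that the stricter search did not extend to a pair. Pairs with a spacer were not searched. The stretches are chr10:117710910-117710969 and chr7:45467065-45467124 (both minus strand), shown here with flanks and with the half-site in capitals.
Mdm2: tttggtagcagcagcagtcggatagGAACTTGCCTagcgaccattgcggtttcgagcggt
Bax: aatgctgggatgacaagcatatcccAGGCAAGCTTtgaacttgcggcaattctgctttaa
Other short motifs were searched as well. The cAMP response element TGACGTCA, a site for the factors that drive immediate early genes, was found only in Btg2 among the 9 genes (2.03% of all genes; both strands searched). CCAAT, the element of the NF-Y factor that recurs in cell cycle promoters, was found in 6 of the 9 genes, against 41.1% of all genes. The Btg2 stretch is chr1:134079289-134079346 (minus strand) and the Gtse1 stretch chr15:85859583-85859663 (plus strand), with those motifs in capitals on either strand.
Btg2: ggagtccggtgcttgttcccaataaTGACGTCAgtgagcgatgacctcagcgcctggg
Gtse1: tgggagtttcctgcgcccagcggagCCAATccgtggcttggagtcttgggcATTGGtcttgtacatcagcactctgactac
A match describes the letters in this window and was not tested for binding.

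Gene counts per library ran from 13949059 to 70367874, deepest in the isolated hepatocytes. Levels are given as CPM, gene counts scaled to a common library total within each experiment by edgeR's TMM factors. Hepatocyte markers were abundant in all 26 libraries, and the isolated hepatocytes held less of the stellate (6.88 to 28.1 CPM summed over 6 genes) and macrophage markers (34.5 to 66.6 CPM) than whole liver of the same strain. Nr0b2, the gene of Shp, stood at 0.595 to 1.68 CPM in the knockout and 13.7 to 28.2 CPM in wild type. Nr1h4 was lower but not absent (55.7 to 65.0 CPM against 117 to 161 CPM). It was also lower on cholic acid in the floxed mice (55.3 to 80.9 CPM against 120 to 143 CPM on chow), so its level alone does not mark the knockout. One library went against its label: Cyp2b10, the classical CAR target, reached 3787 CPM in the library that is labelled corn oil 1 but 10.3 CPM in corn oil 2, against 3465 and 3079 CPM under TCPOBOP.

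All 10 genes passed the filter on low counts in all 5 comparisons. Eda2r passed it through the treated group alone in the knockout and cholic acid experiments, and Phlda3 in the high fat experiment. Per kilobase of exon in wild-type liver, Trp53inp1 was the most abundant (41.8 CPM per kb). Cdkn1a, Bax, Ccng1 and Mdm2 followed between 8.46 and 12.0 CPM per kb. Gdf15 and Btg2 stood at 2.80 and 2.60 CPM per kb. Phlda3 (0.594), Gtse1 (0.400) and Eda2r (0.0296 CPM per kb) were scarce in resting liver, so their large ratios started from few reads.

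**Figure D1:**
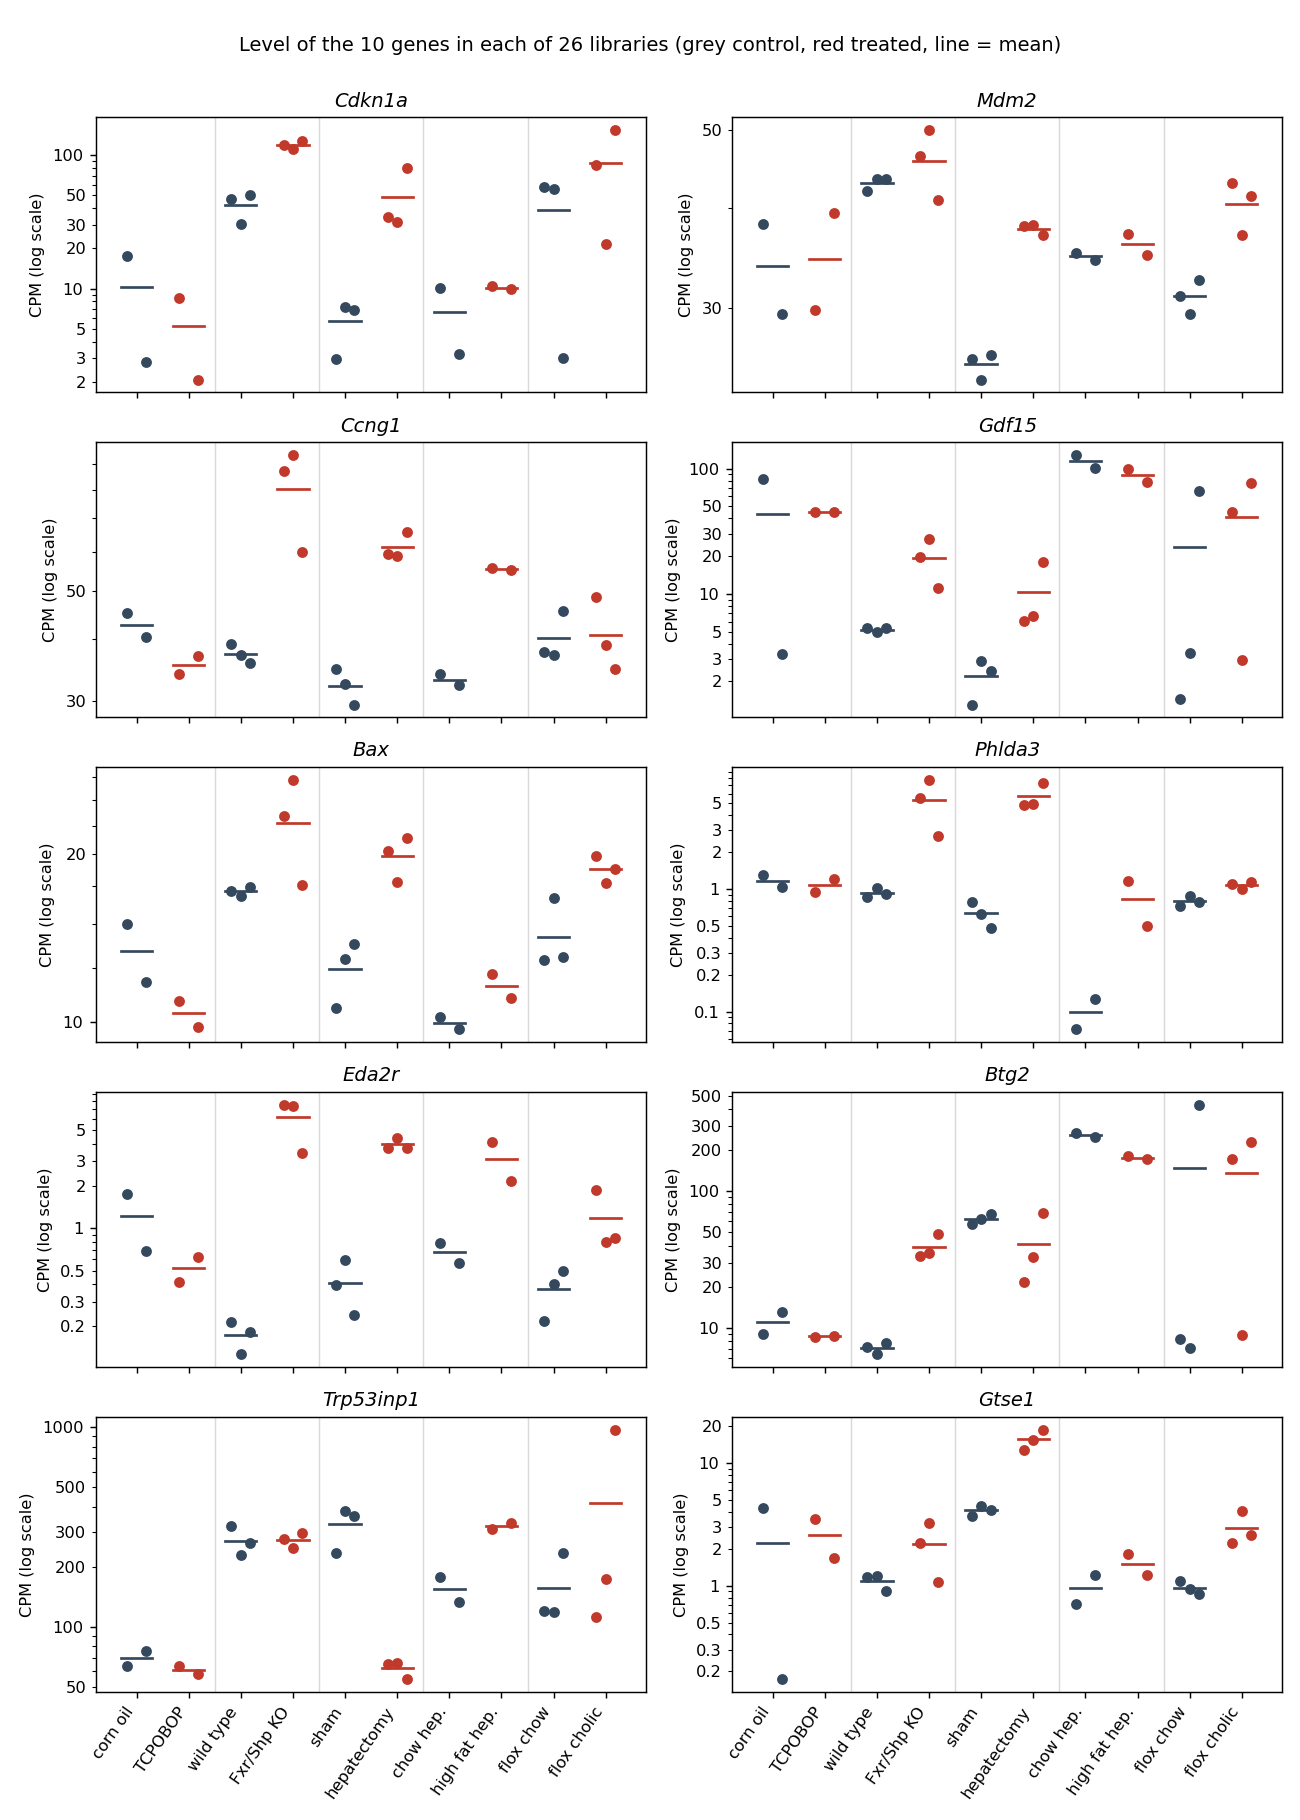
CPM of each of the 10 genes (log axes) in the 26 libraries, grouped by experiment along the horizontal axis, with control libraries in grey, treated libraries in red and the group mean as a line. Eda2r and Phlda3 are near or below 1 CPM in wild-type and sham libraries and several CPM in knockout and hepatectomy libraries, while Btg2 and Gdf15 scatter within the floxed groups.

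In livers lacking Fxr and Shp, 6 of the 10 genes changed and all 6 rose (called at an adjusted p under 0.05 by the quasi-likelihood test of edgeR, with Benjamini-Hochberg adjustment), in a comparison where 21.0% of all genes tested were higher and 40.4% changed. The median log2 fold change of the 10 genes was 1.29, against -0.01 over all genes tested. Eda2r, Phlda3, Btg2, Gdf15, Cdkn1a and Ccng1 were the 6, of which Eda2r entered the test through its knockout counts alone. Mdm2, the direct negative regulator of p53, was not among them. The 2 groups did not overlap in 7 of the 10 genes, nor in 53.4% of all genes tested.

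Among the genes that feed back on p53 or damp survival signals, Mdm2 stood at 41.99, 43.5 and 43.5 CPM in wild type and 46.5, 50.04 and 40.95 CPM in the knockout (log2 fold change 0.09 ± 0.09 SE, adjusted p = 0.47). The 2 groups overlapped. Ccng1, which encodes cyclin G1 and directs the phosphatase PP2A to Mdm2, was at 39.1, 37.3 and 35.9 CPM in wild type and 87.2, 93.95 and 59.97 CPM in the knockout (log2 fold change 1.10 ± 0.16 SE, adjusted p = 0.000836). Phlda3, an inhibitor of the kinase Akt at the membrane, was at 0.859, 1.01 and 0.9065 CPM against 5.53, 7.76 and 2.72 CPM (log2 fold change 2.52 ± 0.40 SE, adjusted p = 0.00148). Neither Ccng1 nor Phlda3 overlapped between the groups, and for both genes knockout 3 was the lowest of its group.

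Of the genes tied to the cell cycle, Cdkn1a encodes the cyclin-dependent kinase inhibitor p21. Cdkn1a was at 47.1, 30.25 and 50.8 CPM in wild type and 119, 111 and 127 CPM in the knockout (log2 fold change 1.48 ± 0.17 SE, adjusted p = 0.000321). Btg2, an antiproliferative cofactor of mRNA deadenylation, was at 7.195, 6.39 and 7.796 CPM against 33.3, 35.3 and 48.7 CPM (log2 fold change 2.46 ± 0.17 SE, adjusted p = 1.73e-05). For both genes every knockout library was above every wild-type library, and knockout 3 was the highest. Gtse1, a microtubule-binding protein of dividing cells that restrains p53, was at 1.18, 1.202 and 0.9065 CPM against 2.24, 3.25 and 1.08 CPM (log2 fold change 0.99 ± 0.40 SE, adjusted p = 0.0815). Its groups overlapped through knockout 3.

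Of the genes tied to cell death, Eda2r, a receptor of the tumour necrosis factor family for ectodysplasin A2, was at 0.215, 0.1265 and 0.181 CPM in wild type, from 2 to 4 reads per library. In the knockout it reached 7.55, 7.43 and 3.45 CPM, from 80 to 165 reads. The fitted change was the largest of the 10 (log2 fold change 5.07 ± 0.46 SE, adjusted p = 7.79e-05), and the ratio of summed counts per depth was 39.5 (95% interval 20.6 to 87.1, counting error only). Bax, which forms pores in the mitochondrial outer membrane, was at 17.2, 16.8 and 17.5 CPM against 23.4, 27.2 and 17.6 CPM (log2 fold change 0.40 ± 0.15 SE, adjusted p = 0.0633), with no overlap but no call. Trp53inp1, a nuclear stress protein that enhances p53 activity and takes part in autophagy, was at 321, 229 and 263 CPM against 276, 248 and 294 CPM (log2 fold change 0.01 ± 0.13 SE, adjusted p = 0.963), with full overlap. The secreted hormone Gdf15, which curbs appetite through a brainstem receptor and is also a target of the integrated stress response, was at 5.32, 4.935 and 5.32 CPM against 19.6, 27.3 and 11.2 CPM (log2 fold change 1.89 ± 0.29 SE, adjusted p = 0.00127), with no overlap.

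Knockout 2 was the highest and knockout 3 the lowest of the 3 knockout libraries for Ccng1, Phlda3, Gdf15, Bax, Gtse1 and Mdm2. Bax, Gtse1 and Mdm2 among these were not called. The summed level of 5 bile duct markers had the same order, at 112, 135 and 57.4 CPM against 32.9, 38.03 and 27.25 CPM in wild type, and 4 of the 5 rose. Stellate cell markers were at 419, 378 and 428 CPM against 186, 265 and 156 CPM, with 5 of 6 higher. Proliferation genes were at 23.4, 20.9 and 21.1 CPM against 8.27, 7.21 and 8.28 CPM, with 11 of 13 higher. Over all genes tested 21.0% were higher. No bile duct or stellate marker was at 0 in all 6 libraries. Their part in the p53 target results was not tested, and in whole liver a change in the number of cells of a type and a change in RNA per cell cannot be told apart. Reads that aligned to more than 1 place also differed, at 43.2 to 44.1% in wild type and 25.5 to 26.9% in the knockout, and their part was not tested.

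Other p53 targets moved as well: of 27 listed, 23 were tested, 11 rose and 3 fell, with a median log2 fold change of 0.52. Over all genes tested 21.0% were higher and 19.4% lower. Tnfrsf10b, a death receptor, went from 0.219 ± 0.0502 to 4.42 ± 1.48 CPM (log2 4.31 ± 0.41 SE, adjusted p = 0.000102), from 3 to 4 reads per wild-type library, and its ratio of summed counts per depth was 23.3 (95% interval 12.8 to 47.2). Gadd45a, a growth arrest gene, went from 1 ± 0.343 to 3.91 ± 0.291 CPM (log2 1.97 ± 0.27 SE, adjusted p = 0.000704). Pmaip1, which encodes the BH3-only protein Noxa, went from 0.736 ± 0.602 to 2.21 ± 0.463 CPM (log2 1.57 ± 0.52 SE, adjusted p = 0.0388), a call lost in 4 of the 6 fits that left out 1 library. Of p53 and its regulators 2 of 8 tested changed, against 40.4% of all genes tested, and both fell. These were the acetyltransferase Ep300 (log2 -0.57 ± 0.12 SE, adjusted p = 0.00564) and the deacetylase Sirt1 (log2 -0.41 ± 0.12 SE, adjusted p = 0.02), the latter call lost without wild type 2 or knockout 1. Trp53, the p53 gene itself, was at 14.1, 16.3 and 15.5 CPM against 12.1, 16.4 and 11.7 CPM (log2 -0.19 ± 0.15 SE, adjusted p = 0.345), and Mdm4, the Mdm2 partner, gave log2 -0.17 ± 0.10 SE, adjusted p = 0.208.

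Genes of DNA damage signalling and repair went both ways, with 4 higher and 5 lower of 20 tested, near the 21.0% and 19.4% of all genes. Xrcc6, the Ku70 subunit of end joining (log2 -0.80 ± 0.12 SE, adjusted p = 0.000941), and Brca2 of recombination (log2 -0.88 ± 0.23 SE, adjusted p = 0.0149) fell, and the mitotic kinase inhibitor Wee1 rose (log2 0.86 ± 0.25 SE, adjusted p = 0.0228). The Brca2 call was lost without knockout 2, and that of Wee1 without wild type 2 or 3. In a fit of all 26 libraries together the calls of Gadd45a, Pmaip1 and Wee1 were lost (adjusted p = 0.103, 0.0724 and 0.468), and Bax gained one (0.048). The calls of Cdkn1a, Gdf15 and Btg2 were also lost there, with adjusted p = 0.153, 0.204 and 0.0894. These were the highest over the alternatives of each gene, and the lowest were 3.33e-14, 5.02e-10 and 4.89e-36. Without knockout 3, Bax (log2 0.57, adjusted p = 0.00229) and Gtse1 (log2 1.33, adjusted p = 0.00533) were called too. Over their alternatives the adjusted p of Bax ran from 0.00229 to 0.216 and that of Gtse1 from 0.00533 to 0.283.

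**Figure D2:**
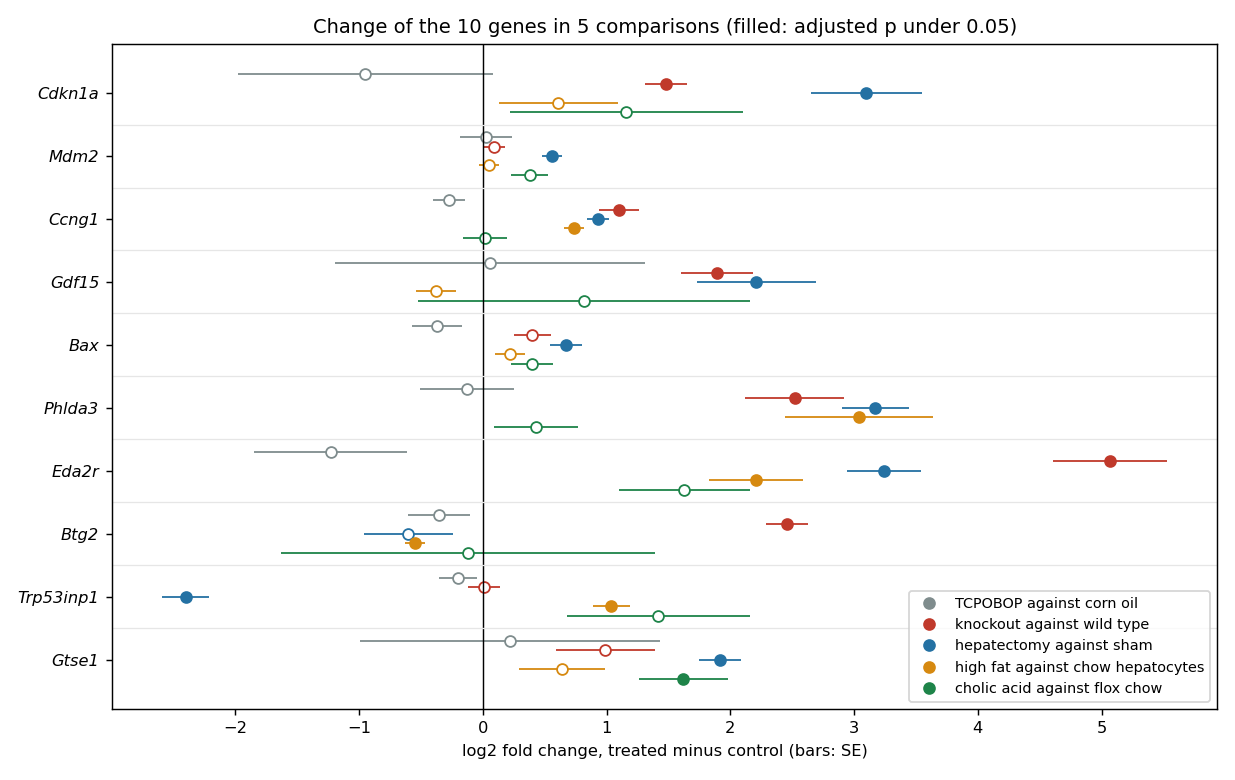
Log2 fold change of each gene (treated minus control, horizontal axis, bars are standard errors) in the 5 comparisons, shown by colour, with filled points where edgeR's adjusted p was under 0.05. The knockout and hepatectomy points lie to the right for Cdkn1a, Gdf15, Phlda3 and Eda2r, and Trp53inp1 lies far to the left (-2.40) after hepatectomy.

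After partial hepatectomy, when the remaining liver is regrowing, 8 of the 10 genes rose and 1 fell, where 16.4% of all genes tested were higher, 14.3% lower and 30.7% changed. The median log2 fold change of the 10 was 1.43, against 0.01 over all genes. Eda2r, Phlda3 and Cdkn1a rose by 8.57- to 9.42-fold in the fit, Trp53inp1 fell, and Btg2 did not pass.

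Mdm2 was at 25.97, 24.45 and 26.25 CPM in sham livers and 37.95, 38.1 and 37.02 CPM at 48 h (log2 fold change 0.56 ± 0.08 SE, adjusted p = 0.00143). The rise was small, but the groups lay far apart relative to their spread. Ccng1 was at 34.8, 32.5 and 29.6 CPM against 59.5, 58.9 and 65.7 CPM (log2 fold change 0.93 ± 0.09 SE, adjusted p = 0.000265). Phlda3 was at 0.784, 0.628 and 0.4798 CPM against 4.84, 4.95 and 7.33 CPM (log2 fold change 3.17 ± 0.27 SE, adjusted p = 0.000113). None of these 3 genes overlapped between the groups. That held for 9 of the 10 genes and for 47.0% of all genes tested.

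Cdkn1a was at 2.94, 7.23 and 6.89 CPM in sham and 34.5, 31.3 and 80.6 CPM after hepatectomy (log2 fold change 3.10 ± 0.45 SE, adjusted p = 0.00178), without overlap and with hepatectomy 3 well above the others. Gtse1 was at 3.72, 4.51 and 4.15 CPM against 12.7, 15.6 and 18.8 CPM (log2 fold change 1.92 ± 0.17 SE, adjusted p = 0.000136), also without overlap. Btg2 was at 57.6, 62.9 and 67.7 CPM against 21.8, 32.75 and 69.5 CPM (log2 fold change -0.60 ± 0.36 SE, adjusted p = 0.241). Hepatectomy 3 exceeded every sham library while the other 2 lay below them all. Without hepatectomy 3 Btg2 was called lower (log2 -1.20, adjusted p = 0.00157, the lowest over its alternatives, which reached 0.719).

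Eda2r was at 0.392, 0.598 and 0.2399 CPM in sham and 3.73, 4.39 and 3.705 CPM after hepatectomy (log2 fold change 3.24 ± 0.30 SE, adjusted p = 0.000165). Bax was at 10.6, 12.97 and 13.8 CPM against 20.2, 17.9 and 21.4 CPM (log2 fold change 0.67 ± 0.13 SE, adjusted p = 0.00617). Both separated the groups fully. Trp53inp1 ran the other way, from 235, 383 and 359.7 CPM to 64.7, 66.1 and 54.4 CPM (log2 fold change -2.40 ± 0.19 SE, adjusted p = 6.88e-05), and the highest hepatectomy library was far below the lowest sham library. Gdf15 was at 1.31, 2.899 and 2.43 CPM against 6.12, 6.604 and 18.1 CPM (log2 fold change 2.21 ± 0.48 SE, adjusted p = 0.0103), without overlap and with hepatectomy 3 again highest.

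Hepatectomy 3 also stood apart in immediate early genes, the transcription factors that cells switch on within minutes of a stimulus. Their sum over 11 genes was 154, 196 and 523 CPM in the hepatectomy libraries and 694, 371 and 482 CPM in sham. Without that library Gdf15 still rose but by less (log2 1.52, adjusted p = 0.00597, against a range of 1.7e-06 to 0.174 over its alternatives). The highest of these came from the fit of all 26 libraries, in which the Gdf15 call was lost. The part of the immediate early genes in the results for Btg2, Gdf15 and Cdkn1a was not tested.

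All 15 proliferation genes rose, from a sum of 15.2, 12.01 and 8.81 CPM in sham to 456, 513 and 727 CPM, Mki67 among them (log2 5.56 ± 0.29 SE, adjusted p = 9.43e-06). Of the DNA damage signalling and repair genes 17 of 24 tested changed and all 17 rose, with a median log2 fold change of 1.73. Over all genes tested 16.4% were higher. The checkpoint mediator Clspn gave log2 5.35 ± 0.34 SE, adjusted p = 2.22e-05, and the Fanconi core protein Fanca gave log2 5.08 ± 0.24 SE, adjusted p = 6.75e-06. Many genes of this list are also made in S phase, and the part of cell division in their change was not tested.

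Among other p53 targets 10 rose and 4 fell of 24 tested, with a median of 0.18. Over all genes tested 16.4% were higher and 14.3% lower. Psrc1, a mitotic spindle protein, went from 0.0756 ± 0.0696 to 4.095 ± 1.04 CPM (log2 5.70 ± 0.51 SE, adjusted p = 0.000152), with 0 to 4 reads per sham library and a ratio of summed counts per depth of 61.5 (95% interval 29.6 to 154). Without sham 3 its log2 value was 6.34. Tnfrsf10b again went up, from 0.436 ± 0.137 to 4.65 ± 0.663 CPM (log2 3.40 ± 0.27 SE, adjusted p = 7.26e-05). Ddit4l, an inhibitor of mTOR signalling, gave log2 2.49 ± 0.58 SE, adjusted p = 0.0141, a call lost without sham 2 or sham 3 and a value of 1.65 without hepatectomy 3. Of p53 and its regulators 2 of 8 tested rose and 2 fell. Trp53 was one that rose, from 11.95, 13.3 and 14.3 CPM to 17.9, 18.4 and 16.1 CPM (log2 0.40 ± 0.11 SE, adjusted p = 0.0255), a call lost in 4 of the 6 fits that left out 1 library and, as for Ep300, in the fit of all 26 libraries (adjusted p = 0.148 and 0.0876). Pml, which gathers p53 in nuclear bodies, rose (log2 1.10 ± 0.18 SE, adjusted p = 0.00311), Ep300 fell (log2 -0.46 ± 0.10 SE, adjusted p = 0.0124, lost without sham 2), and Mdm4 did not pass (log2 0.28 ± 0.11 SE, adjusted p = 0.0781).

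In hepatocytes isolated after a high fat diet, 4 of the 10 genes rose and 1 fell, where 12.9% of all genes tested were higher and 11.1% lower. The 4 were Phlda3, which entered the test through its high fat counts alone, Eda2r, Trp53inp1 and Ccng1, and Btg2 fell. The median log2 fold change was 0.63, against 0.01 over all genes. Cdkn1a and Mdm2 were not called. With 2 libraries a group, 8 of the 10 genes and 68.2% of all genes tested had no overlap.

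Ccng1 was at 34.1 and 32.4 CPM on chow and 55.6 and 55.05 CPM on the high fat diet (log2 fold change 0.74 ± 0.08 SE, adjusted p = 0.00469), without overlap. Phlda3 was at 0.0714 and 0.126 CPM against 1.17 and 0.497 CPM (log2 fold change 3.04 ± 0.60 SE, adjusted p = 0.0214), from 4 and 8 reads on chow. Its ratio of summed counts per depth was 9.12 (95% interval 5.04 to 18.1), and without high fat 1 the call was lost (log2 2.29, adjusted p = 0.0837, the highest over its alternatives, which began at 0.000566). Mdm2 was at 35.15 and 34.5 CPM against 37.1 and 34.96 CPM (log2 fold change 0.05 ± 0.08 SE, adjusted p = 0.676), and its groups overlapped.

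Cdkn1a was at 10.1 and 3.201 CPM against 10.5 and 9.85 CPM (log2 fold change 0.61 ± 0.48 SE, adjusted p = 0.382), with the second chow library far below the first. Without chow 1 it was called higher (log2 1.66, adjusted p = 0.00165), and over its alternatives the adjusted p ran from 0.00165 to 0.999. Btg2 was at 264 and 249 CPM against 180 and 171 CPM (log2 fold change -0.55 ± 0.08 SE, adjusted p = 0.0116), without overlap. Gtse1 was at 0.714 and 1.21 CPM against 1.815 and 1.21 CPM (log2 fold change 0.64 ± 0.35 SE, adjusted p = 0.221), the groups meeting at the second library of each.

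Eda2r was at 0.785 and 0.568 CPM against 4.09 and 2.167 CPM (log2 fold change 2.21 ± 0.38 SE, adjusted p = 0.0153). Trp53inp1 was at 178 and 133 CPM against 308 and 332 CPM (log2 fold change 1.04 ± 0.15 SE, adjusted p = 0.00997). Both rose without overlap. Bax was at 10.2 and 9.699 CPM against 12.2 and 11.03 CPM (log2 fold change 0.22 ± 0.12 SE, adjusted p = 0.206). Gdf15 was at 129 and 102 CPM against 98.4 and 77.96 CPM (log2 fold change -0.38 ± 0.16 SE, adjusted p = 0.13). Its group means were higher here than in the other experiments, which were scaled separately. The library labelled corn oil 1 was the only one of whole liver with more Gdf15 than the lowest hepatocyte library. Gdf15 was called lower with the replicate number as a block (adjusted p = 0.0215) and without chow 2 (log2 -0.55, adjusted p = 0.0415), and over its alternatives the adjusted p ran from 0.0215 to 0.903. In the fit of all 26 libraries the calls of Btg2 and Trp53inp1 were lost, at adjusted p = 0.841 and 0.271. These were the highest over the alternatives of each, and the lowest were 3.81e-06 and 1.43e-08.

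Markers of other liver cells moved with the diet in these hepatocyte preparations. Endothelial markers were higher in 5 of 5 (summed 36.7 and 34.6 CPM on chow, 87.7 and 85.35 CPM on the high fat diet). Macrophage markers were higher in 5 of 6 (34.5 and 36.05 against 60.7 and 66.6 CPM). Stellate markers were higher in 5 of 6 (10.6 and 6.88 against 28.1 and 24.1 CPM), where 12.9% of all genes tested were higher. None of these markers was at 0 in all 4 libraries, although the B cell marker Ms4a1 was. Their part in the results for Phlda3, Eda2r and the other genes was not tested.

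Of the other p53 targets 9 rose and 3 fell of 26 tested, with a median of 0.33. Over all genes tested 12.9% were higher and 11.1% lower. Apaf1, the scaffold of the apoptosome, gave log2 1.32 ± 0.29 SE, adjusted p = 0.0277, a call lost without chow 1 or high fat 1. Sesn1, a sestrin that restrains mTOR, went from 14.1 ± 1.46 to 7.59 ± 0.699 CPM (log2 -0.90 ± 0.13 SE, adjusted p = 0.0108). Bbc3, which encodes the BH3-only protein Puma, gave log2 -0.84 ± 0.18 SE, adjusted p = 0.0267, lost without chow 2 or high fat 2. In the fit of all 26 libraries the calls of Sesn1 and Bbc3 were lost (adjusted p = 0.0525 and 0.144). The checkpoint kinase Chek2 was one of 2 DNA damage genes that rose (log2 1.18 ± 0.23 SE, adjusted p = 0.02), of 23 tested, and its call was lost without high fat 1. Of p53 and its regulators 0 of 8 tested were called, Trp53 (log2 0.30 ± 0.12 SE, adjusted p = 0.115) and Mdm4 (log2 -0.01 ± 0.10 SE, adjusted p = 0.965) included. At an unadjusted p under 0.05 it was 5 of 8, beside 5563 of all 13892 genes tested.

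**Figure D3:**
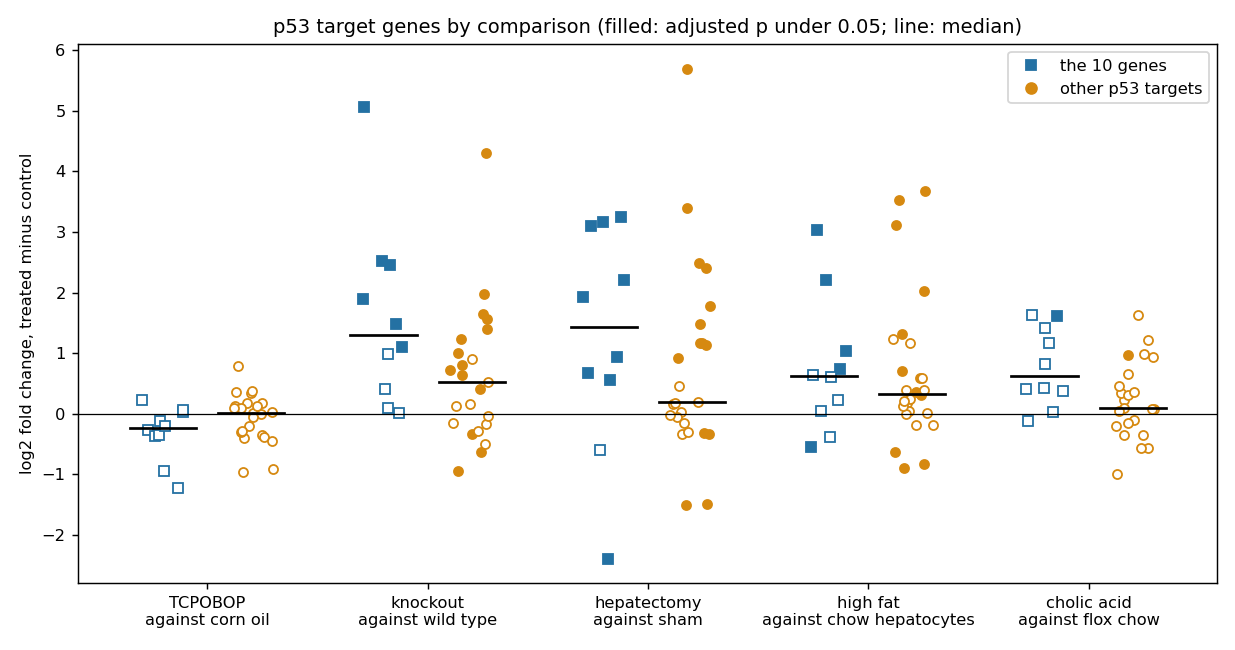
Log2 fold change (vertical axis, treated minus control) of the 10 genes (squares) and of the other p53 targets tested (circles) in the 5 comparisons, filled where edgeR's adjusted p was under 0.05, with the median of each set as a line. The median of the 10 genes is 1.29 in the knockout and 1.43 after hepatectomy. After hepatectomy both sets contain genes that fell.

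With cholic acid in the diet of floxed mice, 1 of the 10 genes was called, where 2.27% of all genes tested were higher, 2.50% lower and 4.77% changed. That gene was Gtse1. In 5 of the 10 genes (Mdm2, Bax, Phlda3, Eda2r and Gtse1) every cholic acid library was above every chow library, and in 0 genes below. Over all genes tested 15.5% had every treated library above. The median log2 fold change was 0.63, against 0.01 over all genes.

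Gtse1 was at 1.09, 0.937 and 0.853 CPM on chow and 2.23, 4.065 and 2.59 CPM on cholic acid (log2 fold change 1.62 ± 0.36 SE, adjusted p = 0.0443). The call was lost in each of the 6 fits that left out 1 library and in the fit of all 26 libraries, and over all alternatives the adjusted p ran from 0.00639 to 0.146. Mdm2 was at 31.1, 29.5 and 32.6 CPM against 42.99, 37.01 and 41.4 CPM (log2 fold change 0.38 ± 0.15 SE, adjusted p = 0.164). Bax was at 12.9, 16.7 and 13.1 CPM against 19.9, 17.8 and 18.8 CPM (log2 fold change 0.40 ± 0.17 SE, adjusted p = 0.201). Both separated by small amounts and were not called. In the fit of all 26 libraries Mdm2 (adjusted p = 0.0155), Eda2r (0.0301) and Trp53inp1 (0.0437) were called higher, and their adjusted p reached 0.397, 0.346 and 0.897 over the alternatives.

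Phlda3 was at 0.726, 0.8699 and 0.782 CPM against 1.09, 1.003 and 1.13 CPM (log2 fold change 0.43 ± 0.34 SE, adjusted p = 0.477). Eda2r was at 0.218, 0.4015 and 0.498 CPM against 1.88, 0.792 and 0.847 CPM (log2 fold change 1.63 ± 0.53 SE, adjusted p = 0.118), from 3 to 7 reads on chow, with a ratio of summed counts per depth of 3.57 (95% interval 2.06 to 6.58). Ccng1 was at 37.7, 37.3 and 45.6 CPM against 48.6, 39.01 and 34.9 CPM (log2 fold change 0.02 ± 0.18 SE, adjusted p = 0.956), with overlapping groups. None of these 3 was called.

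The 4 remaining genes varied more within a group than between groups. Btg2 was at 8.35, 7.09 and 428 CPM on chow and 171, 8.82 and 227 CPM on cholic acid (log2 fold change -0.12 ± 1.51 SE, adjusted p = 0.972). Gdf15 was at 1.45, 3.35 and 65.9 CPM against 44.9, 2.96 and 76.4 CPM (log2 fold change 0.82 ± 1.34 SE, adjusted p = 0.755). Chow 3, cholic acid 1 and cholic acid 3 were high for both genes, and the other 3 libraries were low. Cdkn1a was at 57.7, 55.8 and 2.99 CPM against 83.9, 21.75 and 155 CPM (log2 fold change 1.16 ± 0.94 SE, adjusted p = 0.496), with chow 3 the lowest library instead. Trp53inp1 was at 119, 118 and 233 CPM against 111, 173 and 973 CPM (log2 fold change 1.42 ± 0.74 SE, adjusted p = 0.298), and cholic acid 3 held the highest level of this gene in the 26 libraries.

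The same 3 libraries stood apart in immediate early genes, whose sum was 129, 176 and 1439 CPM on chow and 1519, 150.1 and 621 CPM on cholic acid. Fos, the best known of them, was at 0.4355, 0.201 and 107 CPM against 114, 1.003 and 11.7 CPM. Atf3, a stress factor of the same family, was at 1.09, 1.07 and 130.1 CPM against 9.61, 2.01 and 119.8 CPM. The part of these genes in the scatter of Btg2 and Gdf15 was not tested, and the labels give the fast only as 8 to 10 h for all 6 samples.

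Proliferation genes rose in 6 of 15 (summed 11.8, 12.3 and 39.7 CPM on chow, 67.8, 171 and 103 CPM on cholic acid), and cholic acid 2 was the highest for both this sum and Gtse1. Over all genes tested 2.27% were higher and 4.77% changed. Of the other p53 targets 1 of 23 tested was called, Sesn2, which went from 7.402 ± 0.611 to 14.5 ± 2.65 CPM (log2 0.97 ± 0.20 SE, adjusted p = 0.0311) and lost its call in 5 of the 6 fits that left out 1 library. Among p53 and its regulators 0 of 8 tested were called, and among DNA damage genes 0 of 23. At an unadjusted p under 0.05 the numbers were 1 and 6, beside 2904 of all 12577 genes tested. Trp53 gave log2 0.03 ± 0.29 SE, adjusted p = 0.968 and Mdm4 log2 0.14 ± 0.16 SE, adjusted p = 0.653.

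**Figure D4:**
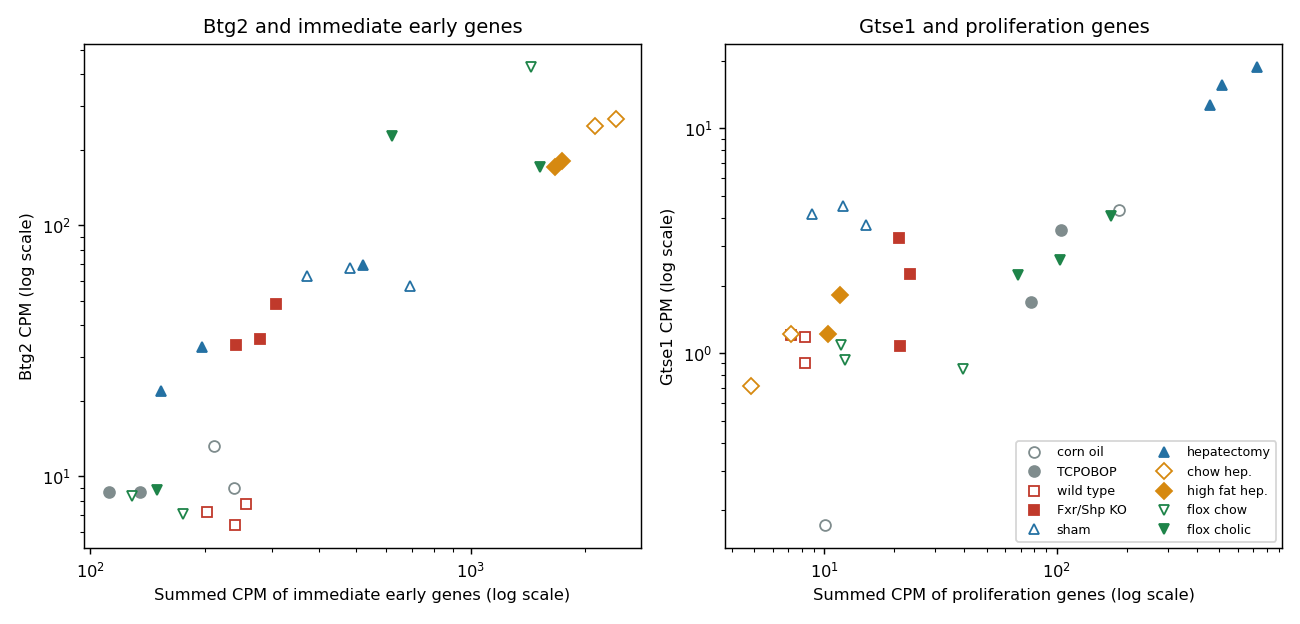
Left, Btg2 CPM against the summed CPM of 11 immediate early genes; right, Gtse1 CPM against the summed CPM of 15 proliferation genes, each point 1 library on log axes, with symbols for the experiment and filled points for treated groups. Flox chow 3 (428 CPM of Btg2) and the hepatocyte libraries lie at the upper right of the first panel, and the 3 hepatectomy libraries at the upper right of the second.

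Across experiments, libraries with more of the immediate early genes tended to hold more Btg2, and libraries with more of the proliferation genes tended to hold more Gtse1, as the plot of these sums shows. The levels come from separately scaled experiments and are given as a description. Sham livers were an exception on the second axis: Gtse1 was at 3.72, 4.51 and 4.15 CPM there, with proliferation sums of 15.2, 12.01 and 8.81 CPM. Gtse1 was at 1.18, 1.202 and 0.9065 CPM in wild type and 1.09, 0.937 and 0.853 CPM in flox chow livers, whose sums were 8.27, 7.21 and 8.28 and 11.8, 12.3 and 39.7 CPM. For Btg2 the knockout was 1 departure from the trend of the sums. Wild-type and knockout libraries had near immediate early sums (203, 241 and 256 and 242, 280.3 and 308 CPM), yet every knockout library held more Btg2. The near sums hide a shift of single genes: 6 of the 11 were called higher and 2 lower, with a median log2 fold change of 1.47. Hepatectomy 1 and 2 also departed. Their sums of 153.5 and 196.2 CPM lay below every wild-type sum, yet both held more Btg2 than any wild-type library. The sham mice were C3H/HeN and the others C57BL/6J, so strain and experiment cannot be told apart.

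With TCPOBOP, 0 of the 10 genes were called by edgeR, where 0% of all 12785 genes tested were called and 751 had an unadjusted p under 0.05. None of the 10 had an unadjusted p under 0.05, and DESeq2's Wald test called 0 of the 10 and 109 genes in all. The median log2 fold change of the 10 was -0.23, against -0.02 over all genes. Other p53 targets (0 of 23), p53 and its regulators (0 of 8) and DNA damage genes (0 of 24) had no call either, nor any unadjusted p under 0.05.

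The library labelled corn oil 1 set much of this spread. Gdf15 was at 83.3 and 3.32 CPM in the corn oil libraries and 45.15 and 45.2 CPM under TCPOBOP (log2 fold change 0.06 ± 1.25 SE, adjusted p = 0.996). Gtse1 was at 4.32 and 0.172 CPM, the second from 3 reads, against 3.53 and 1.696 CPM (log2 fold change 0.22 ± 1.21 SE, adjusted p = 0.992). The library labelled corn oil 1 thus resembled or exceeded the TCPOBOP libraries in both, as it did for the proliferation marker Mki67 at 26.9 and 1.72 CPM against 14.3 and 13.1 CPM (log2 -0.06 ± 1.10 SE, adjusted p = 0.996).

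Cdkn1a was at 17.6 and 2.805 CPM against 8.47 and 2.07 CPM (log2 fold change -0.95 ± 1.03 SE, adjusted p = 0.956), the first library of each group being the higher. Ccng1, Bax, Eda2r and Btg2 had both TCPOBOP libraries below both corn oil libraries, and 18.7% of all genes tested did so. Their log2 fold changes ran from -1.23 (Eda2r) to -0.27 (Ccng1). Mdm2, Phlda3 and Trp53inp1 overlapped, with log2 fold changes of 0.03, -0.13 and -0.20.

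When the library labelled corn oil 1 was left out, so that the lone corn oil library was assumed to vary like the TCPOBOP group, 1233 of 13190 genes were called. Gdf15 (log2 3.77, adjusted p = 4.16e-05) and Gtse1 (log2 3.88, adjusted p = 0.0222) were the 2 of the 10 among them. Without corn oil 2 instead, Gdf15 was called in the other direction (log2 -0.88, adjusted p = 0.00929). Over the alternatives the adjusted p reached 1 for both genes. Trp53 (log2 -0.09 ± 0.16 SE, adjusted p = 0.981) and Mdm4 (log2 0.06 ± 0.16 SE, adjusted p = 0.983) were not called.

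Differences between experiments were tested directly for 4 pairs of effects, each as an interaction in edgeR fitted to both experiments. The pairs share experiments (the knockout enters 3 of them, hepatectomy and cholic acid 2 each), so they are not independent. Mice, strain, tissue and feeding also differ between experiments, and what sets a difference was not tested. Between the knockout and cholic acid effects 3 of the 10 genes differed, where 13.9% of all genes did. Eda2r (difference in log2 fold change 3.44 ± 0.78 SE, adjusted p = 0.0121), Phlda3 (2.09 ± 0.53 SE, adjusted p = 0.0207) and Ccng1 (1.09 ± 0.25 SE, adjusted p = 0.0126) responded more in the knockout. Eda2r had passed the low-count filter through the treated group alone in both experiments. That limits its difference here and in the other pairs with the knockout. The Phlda3 call was lost without wild type 1, at adjusted p = 0.052, the highest over its alternatives (lowest 0.00241).

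Between hepatectomy and cholic acid 3 genes differed, against 13.0% of all genes. Phlda3 (2.73 ± 0.41 SE, adjusted p = 0.00133) and Ccng1 (0.91 ± 0.20 SE, adjusted p = 0.012) rose more after hepatectomy, and Trp53inp1 went the other way (-3.81 ± 0.89 SE, adjusted p = 0.015), by -2.26 without cholic acid 3. Btg2 did not differ with all libraries (-0.47 ± 1.77 SE, adjusted p = 0.895), and did without chow 3 (-4.74, adjusted p = 0.0234, range 0.0234 to 1).

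Between the knockout and hepatectomy 5 genes differed, against 31.5% of all genes. Btg2 (3.07 ± 0.46 SE, adjusted p = 0.00028) and Trp53inp1 (2.42 ± 0.24 SE, adjusted p = 1.25e-05) were the sharpest: Btg2 rose in the knockout but not after hepatectomy, and Trp53inp1 fell after hepatectomy but did not change detectably in the knockout. Mdm2 rose more after hepatectomy (-0.46 ± 0.12 SE, adjusted p = 0.0113). Cdkn1a also rose more after hepatectomy (-1.61 ± 0.51 SE, adjusted p = 0.0277), and Eda2r more in the knockout (1.86 ± 0.64 SE, adjusted p = 0.0415). The Cdkn1a call was lost in 6 and the Eda2r call in 9 of the 12 fits that left out 1 library. In the fit of all 26 libraries the Btg2, Cdkn1a and Eda2r calls were lost, at adjusted p = 0.138, 0.294 and 0.0707. Ccng1, Phlda3, Gdf15, Bax and Gtse1 were not called different, with differences of 0.19 ± 0.20 SE, adjusted p = 0.496 for Ccng1 and -0.63 ± 0.53 SE, adjusted p = 0.398 for Phlda3.

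Between the knockout and the high fat diet 4 genes differed, against 16.1% of all genes. Btg2 (3.01 ± 0.22 SE, adjusted p = 1.22e-05), Gdf15 (2.29 ± 0.41 SE, adjusted p = 0.00385) and Eda2r (2.89 ± 0.73 SE, adjusted p = 0.0233) rose more in the knockout, and Trp53inp1 (-1.03 ± 0.23 SE, adjusted p = 0.0124) rose more in the high fat hepatocytes. The Eda2r call was lost in 5 of the 10 fits that left out 1 library and the Trp53inp1 call without chow 2. In the fit of all 26 libraries the calls of Btg2 (adjusted p = 0.287), Gdf15 (0.453) and Trp53inp1 (0.43) were lost. Phlda3, which rose in both, gave a difference of -0.49 ± 0.80 SE, adjusted p = 0.725, and Ccng1 one of 0.38 ± 0.22 SE, adjusted p = 0.285. Ccng1, Phlda3 and Eda2r were therefore the 3 genes called higher in the knockout, hepatectomy and high fat comparisons alike. Of these, Eda2r in the knockout and Phlda3 on the high fat diet had entered the test through the treated group alone. The log2 value of Phlda3 on the high fat diet was 3.04 with all libraries and 2.29 without high fat 1. Mdm2 and Bax were called in the hepatectomy comparison alone. The Mdm2 effect there differed from that in the knockout and the Bax effect did not (-0.25 ± 0.21 SE, adjusted p = 0.391). Against the cholic acid effect neither was called different (0.18 ± 0.15 SE, adjusted p = 0.452 for Mdm2 and 0.27 ± 0.20 SE, adjusted p = 0.423 for Bax).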

How the data were processed

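The authors deposited 1 table of raw read counts per gene for all 26 libraries, with 47643 Ensembl genes and 5 summary lines that were left out, and 0 per-sample columns were left unused. Per the submitters' processing notes, bcl2fastq 2.17.1.14, Trimmomatic, STAR 2.4.2a, Picard 1.119 and HTSeq were used with builds GRCm38 and mm10. The annotation and the strand setting are not given in the sources used here. Per the labels' protocols, RNA came from flash-frozen tissue and libraries from a stranded mRNA kit. Symbols were matched for 47224 identifiers. Coordinates of sequences are those of RefSeq on GRCm38.p6. In GENCODE M21, exons of Bax and of Cdkn1a overlap another gene (Gm45808 on the same strand, 192 bases, and the antisense AC167363.2, 273 bases), so reads there may have been discarded.

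Each experiment was fitted alone in edgeR 4.0.16 (R 4.3.3, limma 3.58.1): filterByExpr at its defaults (a minimum count of 10 and a total of 15), TMM scaling, and the quasi-likelihood F test with Benjamini-Hochberg adjustment over all genes tested, called at an adjusted p under 0.05. The SE of a log2 fold change was derived from the change and its F statistic (size over root F). CPM is the count over the TMM-scaled library total. Ratios of summed counts carry exact 95% binomial intervals, which cover counting error only. The procedure was tested on simulated counts.

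The 10 genes, the gene lists and the alternatives were chosen with earlier results of these data known. Genes named beside the 10 are, from each list, up to 3 called genes with the largest change, groups that did not overlap and a mean log2 CPM not below 0, with Trp53, Mdm4, Mki67, Fos, Atf3 and Ddit3 added by name. Alternatives were DESeq2 1.42.0 (its size factors in edgeR, and its Wald test), 1 joint fit of the 26 libraries, other low-count filters (none, or mean count 10 and above), the replicate number as a block, and leaving out each library.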

Additional observations from a re-analysis of the deposited data

Results flagged for a closer look

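A closer look is warranted where the same gene responded differently in a pair of experiments. The difference itself was tested in edgeR, with adjustment over all genes tested, and 15 such differences among the 10 genes passed. Each is the first log2 fold change minus the second, and the experiments differ in strain, age, feeding or tissue as well as in treatment.

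For the knockout minus cholic acid effects, the values were 1.09 for Ccng1 (adjusted p = 0.0126), 2.09 for Phlda3 (0.0207) and 3.44 for Eda2r (0.0121). Phlda3 and Eda2r rose in the knockout from under 1.1 CPM, and on cholic acid both had every library above chow without a call. Eda2r passed the low-count filter through the treated group alone in both experiments, which limits its values here and in the pairs below.

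For the knockout minus hepatectomy effects, Cdkn1a gave -1.61 (adjusted p = 0.0277), Mdm2 -0.46 (0.0113), Eda2r 1.86 (0.0415), Btg2 3.07 (0.00028) and Trp53inp1 2.42 (1.25e-05). Btg2 rose in the knockout (log2 2.46) and had a log2 value of -0.60 after hepatectomy that did not pass. Trp53inp1 fell after hepatectomy (log2 -2.40) and stood at 0.01 in the knockout.

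For the knockout minus high fat effects, Gdf15 gave 2.29 (adjusted p = 0.00385), Eda2r 2.89 (0.0233), Btg2 3.01 (1.22e-05) and Trp53inp1 -1.03 (0.0124). Btg2 was called in opposite directions in these 2 experiments, at log2 2.46 and -0.55.

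For the hepatectomy minus cholic acid effects, Ccng1 gave 0.91 (adjusted p = 0.012), Phlda3 2.73 (0.00133) and Trp53inp1 -3.81 (0.015). The Trp53inp1 value owes 1.42 to a cholic acid effect that was not called and in which 1 of 3 libraries was at 973 CPM.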

How the results depend on the processing

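DESeq2's size factors and a mean count of at least 10 left all 141 single log2 values on their side of the threshold, and DESeq2's Wald test left 140. Fitting all 26 libraries together, with a spread shared between experiments, changed several counts. Genes of the 10 called on the high fat diet went from 5 to 3 and other p53 targets from 12 to 5. On cholic acid the 10 genes went from 1 to 3 (0 shared) and other targets from 1 to 5. Genes that differed between the knockout and hepatectomy went from 5 to 2, and between the knockout and high fat from 4 to 1. Of single values in that fit 25 lost and 5 gained a call, and the cause was not tested.

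Leaving out 1 library at a time gave 6 to 8 of the 10 genes in the knockout, 9 to 10 after hepatectomy, 4 to 6 on the high fat diet, 0 to 0 on cholic acid and 0 to 2 with TCPOBOP. For other p53 targets the ranges were 8 to 17, 9 to 14, 2 to 8, 0 to 1 and 0 to 3. Genes that differed numbered 2 to 3 (knockout and cholic acid), 3 to 5 (knockout and hepatectomy), 3 to 5 (knockout and high fat) and 3 to 4 (hepatectomy and cholic acid). Of the 141 values 36 changed sign in some of these fits, and 0 of the 36 were called with all libraries. In 4 the sign changed with a call gained: Gdf15 with TCPOBOP ran from -0.88 (without corn oil 2) to 3.77, Mki67 with TCPOBOP from -0.97 to 3.00 (without corn oil 1), Fos after hepatectomy from -2.43 (without hepatectomy 3) to 1.11, and Atf3 on the high fat diet from -0.74 to 0.46 (without chow 1).

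Replicate numbers come from the titles and were not taken as pairs in the main fits. Same-number correlations of deviations ran from -0.198 to -0.007 in the knockout, -0.076 to 0.105 after hepatectomy and 0.097 to 0.158 on cholic acid, with only 2 pairs (0.121 and 0.130) in the other experiments. With the replicate number as a block, cholic acid calls went from 1 to 0 for the 10 genes and from 1 to 0 for other p53 targets, and the other counts stayed within 1.5 times. In the cholic acid experiment each library correlated best with its own number, a hint from the data and not from the design. Groups of 2 or 3 libraries limit every result, and genes with under 10 reads in a library, such as Eda2r, Phlda3, Tnfrsf10b and Psrc1, are limited by depth.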

Other observations

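Gdf15 is also a target of the integrated stress response, the program of Atf4 and Ddit3 (CHOP) that follows amino acid shortage or unfolded proteins. In the knockout 4 of the 10 genes of that list rose and 2 fell, where 21.0% of all genes tested were higher and 19.4% lower. After hepatectomy 2 rose and 3 fell, where the shares were 16.4% and 14.3%. On the high fat diet 1 fell, and on cholic acid (10 tested) and with TCPOBOP (9 tested) 0 were called by edgeR, with 2 and 1 at an unadjusted p under 0.05. Over all genes tested 2904 of 12577 and 751 of 12785 were under that threshold. The summed level of the list, which its abundant genes dominate, was lower in the knockout without overlap (587.3 to 671.8 CPM in wild type, 405.7 to 435.5 CPM in the knockout). It was higher after hepatectomy, also without overlap (301 to 443.1 CPM in sham, 447.8 to 522.5 CPM after hepatectomy). The median log2 fold change of the list ran against both sums, at 0.22 in the knockout and -0.26 after hepatectomy. Ddit3 itself gave log2 0.46 ± 0.20 SE, adjusted p = 0.103 in the knockout and log2 -0.14 ± 0.38 SE, adjusted p = 0.812 after hepatectomy, the 2 comparisons in which Gdf15 rose. Atf3, which belongs to both stress programs, rose in the knockout (log2 3.19 ± 0.25 SE, adjusted p = 3.05e-05) and fell after hepatectomy (log2 -2.45 ± 0.21 SE, adjusted p = 0.000119), and both calls were lost in the fit of all 26 libraries (adjusted p = 0.127 and 0.152). The part of this program in the Gdf15 results was not tested.

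Immediate early genes rose in the knockout in 6 of 11 and fell in 2, with Fos at 0.698, 1.01 and 1.09 CPM in wild type and 5.26, 5.95 and 7.63 CPM in the knockout (log2 2.75 ± 0.25 SE, adjusted p = 8.41e-05), a call lost in the fit of all 26 libraries (adjusted p = 0.268). Btg2, itself an early response gene, rose with them. After hepatectomy 3 of 11 fell, and on the high fat diet 1 rose and 5 fell, beside the fall of Btg2. Over all genes tested 21.0% were higher and 19.4% lower in the knockout. The shares were 14.3% lower after hepatectomy, and 12.9% higher and 11.1% lower on the high fat diet. In isolated hepatocytes the summed level of these genes was 2409 and 2128 CPM on chow and 1741 and 1665 CPM on the high fat diet, above all 22 whole-liver libraries.

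The counts of cell type markers below stand beside 40.4% of all genes tested changed in the knockout, 30.7% after hepatectomy, 24.0% on the high fat diet and 4.77% on cholic acid. Hepatocyte markers fell in 4 of 6 in the knockout, 3 of 6 after hepatectomy, 3 of 6 on the high fat diet and 1 of 6 on cholic acid. Endothelial markers rose in 2 of 5 in the knockout and fell in 1 of 5 after hepatectomy. Macrophage markers rose in 1 and fell in 1 of 6 in the knockout, and rose in 1 of 6 after hepatectomy and in 1 of 6 on cholic acid. After hepatectomy bile duct markers rose in 1 of 5 and stellate markers in 2 of 6. Of 5 lymphocyte markers 1 passed the low-count filter on the high fat diet, and it rose. Beside these and the counts given above, no marker of these lists was called by edgeR.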
